A study of Mus musculus with 6 samples.

Results

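The genes of the hemidesmosome and of its ligand laminin-332 were examined in the inner enamel epithelium (IEE) of the mouse mandibular first molar. Members were the 9 rows of the expression table whose symbol was *Lama3*, *Lamb3*, *Itga3*, *Itga6*, *Itgb4*, *Col17a1*, *Plec*, *Dst* or *Cd151*, out of 18152 genes in all, and the 9 genes were among the 14131 that passed the filter on low counts. RNA-seq was made at E18.5 from 3 *Kdf1* fl/fl libraries, which the labels call wild type, and 3 *K14-Cre;Kdf1* fl/fl libraries. Both groups carry the floxed *Kdf1* alleles on a C57BL/6J background, and in the second group Cre under the keratin 14 promoter deletes *Kdf1* in epithelial cells; they are called control and cKO here, after the sample labels. The IEE was cut from frozen sections by laser capture microdissection, and how many animals or sections went into a library is not given in the sources used here, so p-values measure the spread between these libraries.

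The hemidesmosome is the rivet-like junction by which a basal epithelial cell holds on to the basement membrane. Its integrin of the α6 and β4 chains and the transmembrane collagen XVII bind laminin-332 outside the cell, and the plakins plectin and BPAG1e tie them to keratin filaments inside it. In the tooth, inherited loss of laminin-332, of the β4 integrin chain or of collagen XVII is known for enamel defects, and IEE cells rest on a laminin-rich basement membrane until they become secretory ameloblasts. The question asked of these libraries was whether epithelial deletion of *Kdf1* goes with a difference in the transcripts of this junction.

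Total estimated counts ranged from 14713918 to 16675133 per library. *Kdf1* had 44.3 to 52.7 CPM (read counts scaled to a common library size, after TMM factors) in the control libraries, and 1 read was counted in the 3 cKO libraries together, which checks the labels. Markers of the labelled tissue were present in every library, and the summed level of the 10 epithelial markers was 7848 to 12230.4 CPM in control and 4758 to 7497 CPM in cKO mice, without overlap. All 10 were lower on average, where 50.5% of all genes tested were, with a median log2 fold change of −0.60. Of the 10, 1 (*Cdh1*) passed an adjusted p of 0.05 in edgeR's quasi-likelihood test, against 0.545% of all genes tested. Genes of dental papilla were abundant as well, with summed levels of 3972 to 21136 CPM in the control libraries and 11991 to 13772 CPM in the cKO libraries. Of these 10 papilla genes, 8 were higher on average in cKO mice. The other 2, *Col1a1* and *Col1a2*, were lower on average and made up most of the papilla sum in every library. Immune and endothelial genes were higher on average in cKO mice in 9 of 9 cases each. The immune genes summed to 41.8 to 90.6 CPM in control and 77.7 to 255 CPM in cKO libraries, and the endothelial genes to 303 to 383 CPM and 352 to 1025 CPM. One library stood apart: replicate 3 of the control group had *Krt13* at 36.96 CPM and *Krt4* at 25.9 CPM, keratins of oral lining epithelium, where the other 5 libraries had at most 0.363 and 0.189 CPM. Its keratinised markers summed to 79.8 CPM, against 11.1 to 15.9 CPM elsewhere, and it was also the highest control library for *Krt5*, *Krt14*, *Lama3*, *Lamb3*, *Itgb4*, *Dst* and *Cd151* and, narrowly, for *Col17a1*. In bulk tissue, fewer cells of a type and less RNA per cell cannot be told apart, and the part of these markers in the values that follow was not tested.

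Of the 9 genes, 8 were lower on average in cKO mice, where 50.5% of all genes tested had a log2 fold change below 0. The largest differences were those of *Lama3*, *Itgb4* and *Col17a1*, at 50.2%, 57.6% and 61.7% of the control level. By edgeR's quasi-likelihood test, adjusted after Benjamini-Hochberg, 0 of the 9 passed an adjusted p of 0.05, as against 0.545% of all genes tested, and 4 had an unadjusted p under 0.05, where 24.5% of all genes tested did. When libraries of the same replicate number were treated as pairs (a block in the edgeR model), *Lama3*, *Itgb4* and *Col17a1* passed and were lower, 3 of 9, where 4.44% of all genes tested did so. No source states this pairing, and it was read from correlations in these same data, so values with the block depend on it. DESeq2 called the same 3 genes lower, and here the background was 5.25%. Without the control library that stood apart, DESeq2 called *Itgb4* alone (adjusted p = 0.0188, with 0.287 for *Lama3* and 0.0736 for *Col17a1*). In that fit 1.74% of all genes tested were called lower. The paired edgeR fit without both libraries of replicate 3 called none of the 9, where 0.231% of all genes tested were called lower. Its adjusted p was 0.101, 0.107 and 0.164 for *Lama3*, *Itgb4* and *Col17a1*, with log2 fold changes of −1.01, −0.84 and −0.67. Both fits hold fewer libraries, and no other omission was made in DESeq2 or the paired fit. The part of this control library in the calls was therefore not tested. In edgeR without replicate 3 of the control group the log2 fold changes of the 3 genes were −0.76, −0.70 and −0.66. In all, 4 genes, *Lama3*, *Lamb3*, *Itgb4* and *Col17a1*, were lower in every cKO library than in any control library in CPM, which held for 16.2% of the genes tested, and the same 4 were so without replicate 3 of the control group (18.7% of the genes tested). None of the 9 was higher in every cKO library (14.5% of the genes tested). The median log2 fold change was −0.37 over the 9 genes and −0.004 over all genes tested.

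**Figure D1:**
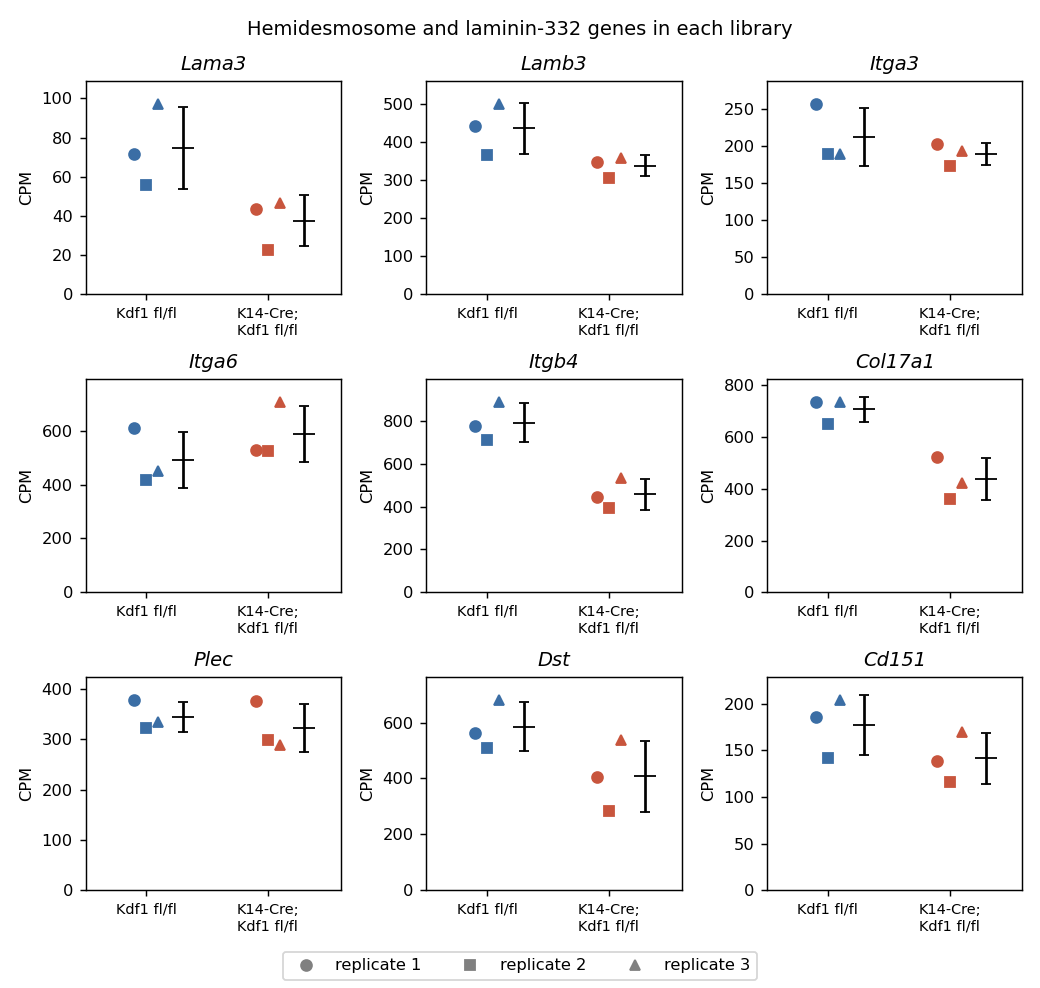
Level of each gene in CPM (y axis, from 0) in the 3 libraries of each genotype, with the replicate number as the symbol and the mean ± SD as the black bar. *Lama3*, *Lamb3*, *Itgb4* and *Col17a1* have no overlap between the groups, and *Itga6* alone has the higher mean in cKO mice.

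Laminin-332 is a cross-shaped trimer, whose α3 and β3 chains are encoded by *Lama3* and *Lamb3*. *Lama3* (gene identifier 16774), whose product carries the part that integrins bind, had 71.8, 55.7 and 97.2 CPM in replicates 1, 2 and 3 of the control group and 43.3, 22.7 and 46.7 CPM in those of the cKO group. The groups did not overlap, and replicate 2 was the lowest of its group in both. The means were 74.9 ± 20.9 and 37.6 ± 13.0 CPM (SD, n = 3 per group), and the log2 fold change was −0.995 (SE 0.31, 95% interval −1.73 to −0.26). It had an adjusted p of 0.123 in edgeR, of 0.0132 once the block was added and of 0.0291 in DESeq2.

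*Lamb3* (16780), the β3 chain, had 442, 367 and 500.2 CPM in control and 348, 307 and 358 CPM in cKO mice. The lowest control library lay just above the highest cKO library. In TPM (transcript share scaled by length) the groups overlapped, with 176.5 in replicate 2 of control and 176.6 in replicate 1 of cKO. The log2 fold change was −0.37 (SE 0.15), with an adjusted p of 0.188 in edgeR and 0.122 with the block.

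Among the receptors, *Itgb4* (192897) encodes the β4 chain, whose long cytoplasmic tail nucleates the hemidesmosome. It had 777, 711 and 890.4 CPM in the control libraries and 445, 393 and 533 CPM in the cKO libraries. Every cKO value was below every control value. The log2 fold change was −0.79 (SE 0.16, 95% interval −1.18 to −0.41), with an adjusted p of 0.0674 in edgeR, 0.0206 with the block and 0.000335 in DESeq2. *Itgb4* was also the only member with an adjusted p under 0.05 in an edgeR fit that left out 1 library, at 0.0476 without replicate 3 of the cKO group. In that fit 623 of 14391 genes tested passed, where 77 of 14131 did with all 6 libraries. When another library was left out, 1 to 16 genes passed.

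*Itga6* (16403), the partner of *Itgb4* in the same heterodimer, went the other way on average. It had 609.96, 416 and 452 CPM in control and 529, 524 and 707 CPM in cKO mice, so that replicate 1 of the controls lay inside the range of the other group. The log2 fold change was 0.25 (SE 0.20, 95% interval −0.22 to 0.72, adjusted p = 0.467 in edgeR), and the adjusted p was 0.309 to 0.764 over the alternatives. The α6 chain also pairs with the β1 chain, so its transcript level is not that of the hemidesmosomal integrin alone.

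*Itga3* (16400) encodes the α3 chain, which with β1 binds laminin-332 outside hemidesmosomes. Its values were 257, 189.6 and 189.4 CPM in control and 203, 173 and 193 CPM in cKO mice, with overlap and a single high control library, replicate 1. The log2 fold change of −0.16 (SE 0.15, 95% interval −0.52 to 0.20) did not pass (adjusted p = 0.560 in edgeR), and it was 0.011 without that library. *Cd151* (12476), the tetraspanin that binds these laminin-binding integrins, had 186, 142 and 204 CPM against 139, 116 and 169.7 CPM. The groups overlapped, and the log2 fold change was −0.32 (SE 0.19, 95% interval −0.77 to 0.12, adjusted p = 0.330 in edgeR and 0.110 with the block). It was −0.17 without replicate 2 of the cKO group and −0.21 without replicate 3 of the control group.

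*Col17a1* (12821) encodes collagen XVII, the transmembrane collagen of the hemidesmosome. It was at 735, 653 and 737 CPM in control and at 524, 363 and 424 CPM in cKO mice, again without overlap. The log2 fold change was −0.70 (SE 0.17, 95% interval −1.09 to −0.31). Its adjusted p was 0.0803 in edgeR, 0.0333 with the block and 0.00390 in DESeq2.

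Of the plakins, *Plec* (18810, plectin) had 378, 322 and 333 CPM in control and 376, 299 and 289 CPM in cKO mice. Replicate 1 was the highest in both groups, and the log2 fold change was −0.10 (SE 0.15, 95% interval −0.44 to 0.24, adjusted p = 0.708 in edgeR). *Dst* (13518), which encodes BPAG1, had 562, 511 and 682 CPM against 405, 283 and 537 CPM. Replicate 3 of the cKO group lay within the control range, and the log2 fold change was −0.52 (SE 0.24, 95% interval −1.09 to 0.05, adjusted p = 0.237 in edgeR and 0.0693 with the block). Without replicate 2 of the cKO group it was −0.28. The estimated counts of *Dst* were not whole numbers in any of the 6 libraries, unlike those of the other 8 genes, as happens where an estimate divides reads between features.

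**Figure D2:**
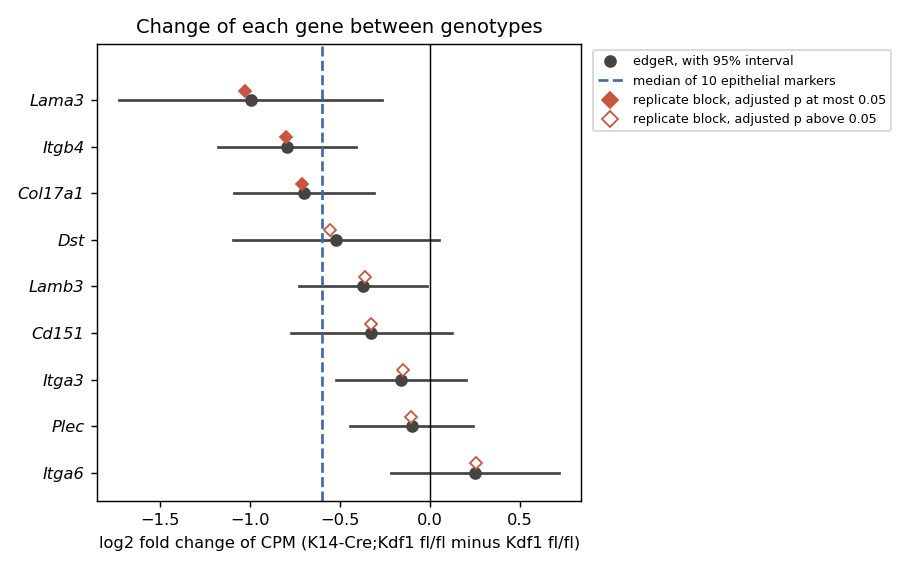
Log2 fold change of CPM (x axis) for each gene, as fitted by edgeR (circles, with 95% intervals) and with the replicate block (diamonds, filled where the adjusted p was at most 0.05). *Lama3*, *Itgb4* and *Col17a1* carry the filled diamonds, and the dashed line marks the median of the 10 epithelial markers at −0.60.

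Levels of different genes were compared in TPM, and so rest on the transcript lengths that the authors assumed. In control mice *Itgb4* and *Col17a1* led, with 235 ± 11.3 and 231 ± 9.48 TPM (SD, n = 3), followed by *Lamb3*, *Cd151* and *Itga6* with 197 ± 17.98, 195 ± 23.9 and 148 ± 31.6 TPM. *Dst*, *Itga3*, *Plec* and *Lama3* came last, with 92.5 ± 8.18, 79.4 ± 15.7, 40.2 ± 4.01 and 23.8 ± 5.21 TPM. Neighbours in this order overlapped in 4 of 8 steps. These were *Itgb4* with *Col17a1*, *Lamb3* with *Cd151*, *Cd151* with *Itga6*, and *Dst* with *Itga3*. In cKO mice the order began with *Itga6* at 183 ± 23.5 TPM, and *Itgb4* was the fifth at 141 ± 18.9 TPM. The first 5 genes there, *Itga6*, *Cd151*, *Lamb3*, *Col17a1* and *Itgb4*, overlapped each with the next. *Lama3* was the lowest in both groups, and the *Itgb4* transcript ranked 569 among all genes of the table in control and 1074 in cKO mice.

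Ratios between partner genes within a library do not depend on how libraries are scaled to each other. The *Itga6* to *Itgb4* ratio of TPM was 0.791, 0.590 and 0.513 in the control libraries and 1.1999, 1.35 and 1.34 in the cKO libraries. Every cKO library lay above every control library. The mean of the log2 ratio differed by 1.06, or 2.09 times as a geometric mean, and by 1.06 in counts, while the level of the ratio depends on the lengths assumed for both genes. In a two-sided exact permutation test the p was 0.1, which is the smallest that 3 libraries against 3 allow, and 0.167 after Benjamini-Hochberg adjustment over 5 ratios.

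The *Lama3* to *Lamb3* ratio was 0.115, 0.107 and 0.139 in control and 0.0878, 0.0522 and 0.0927 in cKO mice. The *Itga3* to *Itga6* ratio, which compares the α chains that bind laminin-332, was 0.525, 0.568 and 0.521 against 0.476, 0.413 and 0.352. Both were lower in every cKO library, with log2 differences of −0.67 and −0.39 and the same exact p of 0.1 (adjusted 0.167). How often ratios of other gene pairs set the groups apart was not computed, so the 3 ratios without overlap have no background. *Lama3* and *Itgb4* were lower without overlap in CPM on their own, as were 16.2% of all genes tested. The *Lama3* to *Lamb3* difference was −0.41 without replicate 2 of the cKO group. *Col17a1* and *Itgb4*, which both encode transmembrane proteins of the hemidesmosome, had a ratio of 0.984 ± 0.0680 in control and 1.06 ± 0.213 in cKO mice (SD, n = 3 per group, exact permutation p = 0.8). The *Plec* to *Dst* ratio was 0.438 ± 0.0670 against 0.661 ± 0.245 (exact permutation p = 0.3), with overlap between the groups and a log2 difference of 0.53, which was 0.29 without replicate 2 and 0.87 without replicate 3 of the cKO group.

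**Figure D3:**
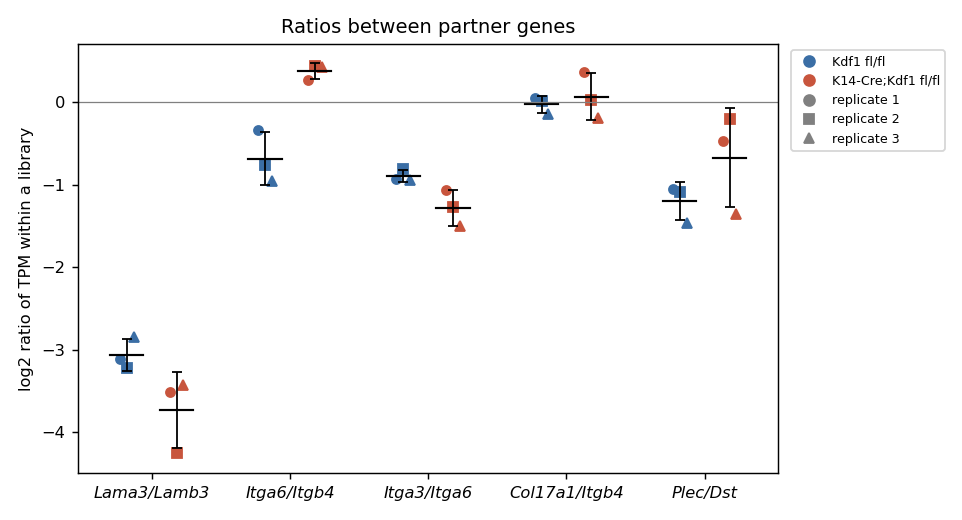
Log2 ratio of TPM (y axis) between 5 pairs of partner genes in each library, blue for control (*Kdf1* fl/fl) and red for cKO mice, with the mean ± SD in black. The groups are apart for *Lama3*/*Lamb3*, *Itga6*/*Itgb4* and *Itga3*/*Itga6*, and they overlap for *Col17a1*/*Itgb4* and *Plec*/*Dst*.

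Each gene was also set against the epithelial markers of its own library, as its log2 CPM minus the mean log2 CPM of the 10 markers. That mean was 9.05 ± 0.23 in control and 8.32 ± 0.32 in cKO mice, a difference of −0.73. On this scale *Itgb4* differed by −0.075 and *Col17a1* by 0.014 between the groups, and *Lama3* by −0.30, each with overlap (exact permutation p = 0.5, 1 and 0.4). *Itga6* was 0.98 higher relative to the markers in cKO mice, *Itga3* 0.58, *Cd151* 0.40 and *Lamb3* 0.36, each without overlap and with the smallest possible exact p of 0.1 (0.225 adjusted over 9 genes). Of all genes tested, 53.3% were higher without overlap on this scale, and the median difference over all genes tested was 0.71, so that *Itga6* lay above the median gene and *Itga3*, *Cd151* and *Lamb3* below it. *Plec* and *Dst* differed by 0.62 and 0.17 with overlap (exact permutation p = 0.2 and 0.4). Against *Krt5* and *Krt14* alone, the keratins to which hemidesmosomes attach, the 9 differences lay between 0.14 for *Lama3* and 1.42 for *Itga6*. The mean log2 CPM of *Krt5* and *Krt14* itself differed by −1.16 between the groups. All genes tested were not set on this scale, so these differences have no background. The markers moved with the genotype themselves, so this scale describes the genes beside other epithelial transcripts and is not a correction.

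The profiles over the 6 libraries were compared by the mean absolute difference of log2 CPM after centring each gene on its mean. *Lamb3* and *Cd151* were each other's nearest member (0.083 on this scale), as were *Itga3* and *Plec* (0.11) and *Itgb4* and *Col17a1* (0.13). *Lama3* and *Itga6* were the farthest apart (0.64). The genes outside the lists that came nearest to the median profile of the 9, among 11478 with at least 5 CPM, were *2900026A02Rik*, *Pick1*, *Vps45*, *Arhgef5* and *Rab8a*, at 0.031 to 0.042. Their log2 fold changes ran from −0.49 to −0.40. The libraries share their depth and composition, so this likeness is a description of 6 values per gene.

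The deposited counts and FPKM values together give the transcript length that the authors' estimate assumed for a gene, since FPKM divides counts by length. For *Lama3* this effective length was 5301 to 5357 bases in the 6 libraries. GENCODE M21 lists a short coding *Lama3* transcript of 5551 bases and a long one of 10548 bases, and the effective length lay just below the short one in both genotypes. For *Dst* it was 10535, 10978 and 10797 bases in control and 11362, 12014 and 10638 bases in cKO mice, between coding transcripts of 8961 and 16340 bases in the same annotation. The *Dst* lengths of the groups overlapped (exact permutation p = 0.3). Of the other 7 genes, *Itga3* had the widest range over the libraries, 4439 to 4597 bases. The transcript models behind the estimate are not given in the sources used here, and the effective length of *Itga6*, 5675 to 5710 bases, exceeds its longest coding transcript in GENCODE M21, 4310 bases.

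Promoter windows of 300 bases, from 250 before to 50 after a transcription start, were read from RefSeq (GRCm38.p6), and 9 windows of 5 of the 9 genes were used. *Lama3*, *Itga6*, *Itgb4* and *Plec* are not among them. A chromosome was left out when the windows of the 9 genes were read, so absence here does not mean that the source holds none. A single window per gene is shown for members that were lower in every cKO library (*Col17a1*, *Lamb3*) and for members that overlapped (*Cd151*, *Itga3*). For *Cd151* and *Itga3* the window shown holds a motif in capitals, and the other window of each holds none. *Dst*, which overlapped as well, has no such motif and is not shown. The windows shown therefore do not compare the kinds of member. Capitals mark TGANTCA, the AP-1 motif, or AACNNGTT, the core of the grainyhead-like motif, on either strand.

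Col17a1, chr19:47691993-47692292, minus strand: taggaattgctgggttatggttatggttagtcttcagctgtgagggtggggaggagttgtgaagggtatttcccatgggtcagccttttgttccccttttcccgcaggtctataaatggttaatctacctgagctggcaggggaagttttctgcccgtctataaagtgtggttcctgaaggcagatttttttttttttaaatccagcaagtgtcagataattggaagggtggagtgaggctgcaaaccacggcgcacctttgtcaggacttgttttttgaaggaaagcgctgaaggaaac

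Lamb3, chr1:193301744-193302043, plus strand: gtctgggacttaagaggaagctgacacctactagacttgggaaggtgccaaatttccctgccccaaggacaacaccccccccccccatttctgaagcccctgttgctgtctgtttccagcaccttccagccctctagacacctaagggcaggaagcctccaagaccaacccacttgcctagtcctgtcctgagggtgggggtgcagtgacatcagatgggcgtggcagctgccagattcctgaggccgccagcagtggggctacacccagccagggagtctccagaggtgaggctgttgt

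Cd151, chr7:141467112-141467411, plus strand: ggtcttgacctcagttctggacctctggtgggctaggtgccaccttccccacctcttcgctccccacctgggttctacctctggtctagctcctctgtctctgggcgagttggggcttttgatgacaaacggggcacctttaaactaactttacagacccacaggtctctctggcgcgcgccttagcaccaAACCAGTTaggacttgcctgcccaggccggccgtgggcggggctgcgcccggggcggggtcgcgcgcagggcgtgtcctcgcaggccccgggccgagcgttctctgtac

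Itga3, chr11:95069149-95069448, minus strand: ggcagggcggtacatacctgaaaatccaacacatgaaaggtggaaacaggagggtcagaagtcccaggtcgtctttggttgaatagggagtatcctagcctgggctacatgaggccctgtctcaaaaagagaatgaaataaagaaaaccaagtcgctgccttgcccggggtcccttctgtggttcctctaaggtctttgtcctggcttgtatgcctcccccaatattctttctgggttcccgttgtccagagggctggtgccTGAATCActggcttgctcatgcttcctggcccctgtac

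TGANTCA was found in 1 of the 9 windows, that of *Itga3*, beginning 13 bases into the transcript, and in 7.81% of all 32851 promoter windows. AACNNGTT was found in 1 window, that of *Cd151*, 59 bases before the start, and in 4.204% of all windows. GGGNGG, the Sp and Klf motif, was found in 8 of the 9 windows and in 68.6% of all windows. Neither of the first 2 motifs lay in the windows of *Col17a1*, *Lamb3* or *Dst*. A match describes letters in these windows and is no evidence of binding.

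The other genes of the basement membrane and its anchorage were described by lists of related genes. *Col7a1*, the anchoring fibril collagen that binds laminin-332 from below, had 535 ± 76.3 CPM in control and 304 ± 68.4 CPM in cKO mice (SD, n = 3 per group). Its log2 fold change was −0.82 (SE 0.20, adjusted p = 0.0837 in edgeR, 0.0301 with the block). *Mmp2*, a protease gene that mesenchymal cells express, had 111 ± 78.2 and 422 ± 178 CPM (adjusted p = 0.0993 in edgeR, 0.0328 with the block).

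Laminin chains outside laminin-332 were higher in 6 of 8 cases, with a median log2 fold change of 0.42. None passed in edgeR, and 3 of 8 had an unadjusted p under 0.05 (24.5% of all genes tested). *Lamc3* and *Lama2* were called higher with the block, with log2 fold changes of 1.54 (SE 0.28) and 1.23 (SE 0.33) in edgeR, and none was called lower, against 5.43% of all genes called higher and 4.44% called lower. *Lama4*, a chain of vessel walls, had 52.4 ± 7.85 and 124 ± 74.3 CPM, with overlap. Of 21 other basement membrane genes, 14 were higher on average, none passed in edgeR, and 10 had an unadjusted p under 0.05 (against the same 24.5%). With the block 6 were called higher and 1 lower, against the same 5.43% and 4.44%. *Npnt*, which encodes the basement membrane protein nephronectin, was the one called lower, with 809 ± 78.0 and 503 ± 70.0 CPM, at a fold change of −0.69 ± 0.15 on the log2 scale (SE; adjusted p of 0.0344 with the block). *Frem1* had 131 ± 44.9 and 294 ± 55.6 CPM with an adjusted p of 0.0808 in edgeR and 0.0659 with the block. *Col4a6* was called higher with the block from a low level, 1.22 ± 0.252 to 4.62 ± 1.78 CPM.

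Other receptors and adaptors were evenly divided, with 8 of 16 higher on average, 0 called in edgeR, and 6 with an unadjusted p under 0.05 (against 24.5%). With the block 2 were called higher and 1 lower, against 5.43% and 4.44% of all genes tested. *Itga2*, the α chain of a collagen receptor, was the one called lower, with 218 ± 26.8 and 91.0 ± 32.7 CPM, at a fold change of −1.26 ± 0.25 on the log2 scale (SE; adjusted p of 0.0656 in edgeR, 0.0265 with the block). The syndecan gene *Sdc4* was called higher, with a fold change of 0.79 ± 0.14 on the log2 scale (SE; adjusted p of 0.0187 with the block), and *Fermt1*, the epithelial kindlin that activates integrins, had −0.48 (SE 0.15, adjusted p = 0.0636 with the block). Among 9 keratins and plakins, 8 were lower on average, where 50.5% of all genes tested were. In edgeR 2 passed, the cornified envelope plakins *Ppl* and *Evpl*, against 0.545% of all genes tested. *Ppl* had a fold change of −1.99 ± 0.16 on the log2 scale (SE; adjusted p of 0.0247 in edgeR) and *Evpl* −1.41 (SE 0.18, adjusted p = 0.0498 in edgeR). *Dsp*, the desmosomal plakin, had −0.86 (SE 0.18, adjusted p = 0.0689 in edgeR, 0.0372 with the block). With the block 7 of the 9 were called lower, against 4.44% of all genes tested. *Krt5* and *Krt14* stand both in this list and among the epithelial markers.

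**Figure D4:**
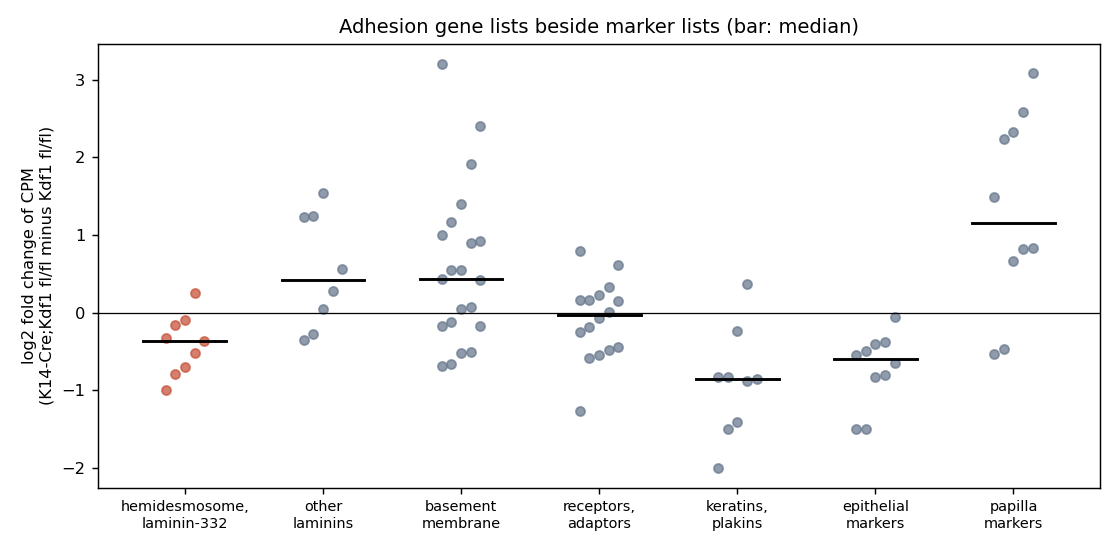
Log2 fold change of CPM (y axis) for each tested gene of the hemidesmosome and laminin-332 group (red), of 4 lists of related genes and of 2 marker lists (grey), with the median as a bar. The median is −0.37 for the 9 genes, 0.42 for other laminins, −0.86 for keratins and plakins and −0.60 for the epithelial markers.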

How the data were processed

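Control and cKO libraries of E18.5 IEE were compared, 3 per group, numbered as biological replicates in the labels. The authors deposited estimated counts per gene without normalisation (10.9% to 11.5% of values not whole), FPKM per length and library size, and TPM per length with an equal total. The submitters' processing notes name BWA 0.7.12, Picard 2.6.0 and StringTie with no role. The counting program and genome build are not given in the sources used here. The deposited group means were not used.

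Estimated counts were rounded, filtered with filterByExpr and scaled by TMM (factors 0.95 to 1.03), and groups were compared across all genes in edgeR 4.0.16 (R 4.3.3) with robust quasi-likelihood fits, two-sided, with Benjamini-Hochberg adjustment. SE is the absolute log2 fold change divided by the square root of F. Alternatives used DESeq2 1.42.0, limma 3.58.1, other scalings and filters, and the omission of each library. Log2 CPM values had a prior count of 2. Genes were called at an adjusted p of 0.05, and over all genes also counted with an absolute log2 fold change of 1 (the criterion of the study). The steps were tested on simulated data. Ratios and levels relative to markers were compared by exact permutation.

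Libraries of the same replicate number deviated from their group means together (correlations 0.135, 0.324 and 0.499 across genes), each above the limit of 0.1, so the number was read as a pair from this check. Replicate 1 of cKO correlated slightly more with replicate 2 of control (0.144), and no source states the pairing. A chi-square per gene between replicates of 36.0 to 76.7, where 1 is expected from sampling, showed no duplicated library.

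The 9 genes and all lists were chosen with earlier results of these data known. Named genes were the 9 members, *Kdf1*, the 3 genes of lowest p in each related list, and the 5 nearest profiles. A gene of one list, and the counts of that list, are not reported here. *Cdh1*, *Col1a1*, *Col1a2*, *Krt4*, *Krt5*, *Krt13* and *Krt14* were named in addition after their values were seen. Lists for erythroid cells, bone, muscle, Schwann cells and keratinised epithelium had median log2 fold changes of 0.01, −0.52, 1.06, −0.14 and −0.26. The muscle median rests on 2 tested genes and the keratinised median on 3. Medians for papilla, immune cells and endothelium were 1.16, 1.42 and 0.93.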

Additional observations from a re-analysis of the deposited data

How the results depend on the processing

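The 9 log2 fold changes were recomputed in 16 alternative fits. Of 144 values, 143 kept the direction, and the exception was *Itga3*, at 0.011 without replicate 1 of control, in a range of −0.24 to 0.011 when each library was left out. The number of the 9 genes past an adjusted p of 0.05 was 3 in DESeq2 and 3 with the replicate block, as against 0. It was 0 to 1 when each library was left out in turn, and the 1 came without replicate 3 of cKO. In that fit 623 of 14391 genes tested passed. Without replicate 3 of control the number of the 9 genes was 1 in DESeq2, where 1.74% of all genes tested were called lower. Without both libraries of replicate 3 it was 0 with the replicate block, where 0.231% of all genes tested were called lower. Both omissions were chosen after seeing the data. The block changed no other call among the 9. Over all genes, 61 were past the adjusted p and the fold change of 1 (20 higher, 41 lower). This count was 980 in DESeq2 (714 higher, 266 lower), 860 with the replicate block (588 higher, 272 lower), 103 without a filter on low counts, 31 in limma on log2(TPM + 1), 9 with library size alone (2 higher, 7 lower), 7 with DESeq2 size factors (1 higher, 6 lower), and 6 each with at least 10 counts in every library and in limma-voom. It was 1 to 465 when each library was left out, with 465 (329 higher, 136 lower) without replicate 3 of cKO and 16 without replicate 2 of control. The cause was not tested. The count of genes lower in every cKO library was 4 to 6 when each library was left out, while the share of all genes was 18.7% to 26.0% in place of 16.2%, an alternative chosen after seeing the data. The *Col17a1* to *Itgb4* log2 ratio turned to −0.059 without replicate 1 of cKO (range −0.059 to 0.22), and the other ratios kept their direction in all alternatives, the replicate block included (sign-flip p of at least 0.25). Relative to *Krt5* and *Krt14* alone, *Lama3* turned to 0.14 and *Itgb4* to 0.36. *Col17a1* relative to the markers turned to −0.02 without replicate 1 or without replicate 3 of control, and to −0.19 without replicate 1 of cKO (range −0.19 to 0.21). With 3 libraries per group an exact test cannot pass 0.1, and a count of 0 allows up to 0.198 CPM in the smallest library, for counting error only.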
